A study of Mus musculus with 2 samples.

Results

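The authors' table of mouse eyeball RNA lists, beside annotated genes, a set of transcribed loci that carry only a serial name of the form Novel00001. All rows so named were taken, 575 of 47644 rows (1.21%), with no further choice. The study holds 2 libraries from C57BL/6 mice, 1 per group. The control library is labelled as a control eyeball, with no treatment or age given. The oxygen-induced retinopathy (OIR) library comes from eyes of mice placed in a hyperoxia chamber at day 7 for 5 days, returned to room air and collected at day 17. In this model high oxygen halts and prunes the growing retinal vessels, and the return to room air leaves the retina short of oxygen and is followed by sprouting of abnormal vessels. The labels give neither the sex nor the number of animals or eyes behind each library. No allele, transgene or drug is named in the labels. The stated aim of the series is the mechanism of lasting visual dysfunction in this model.

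Loci of this kind are found where spliced or unspliced RNA-seq reads pile up outside the gene models in use. Many such transcripts are long noncoding RNAs, which are usually expressed at low levels and often start beside the promoter of a coding gene, on the opposite strand. Others are unlisted 5′ or 3′ extensions of known genes, primary transcripts from which microRNAs are cut, pseudogenes, or transcripts of endogenous retroelements. All coordinates below are the table's own, on the mouse build mm10, which GENCODE and RefSeq call GRCm38. The authors' method of assembling the loci was not given in the sources used here.

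The starts of a few loci coincide with starts that RefSeq lists, and their sequence can be shown. RefSeq (GRCm38.p6) places the start of a gene on the same strand in, or up to 1 kb before, 109 of the 575 loci, and 43 of those starts lie within 100 bases of the locus's 5′ end. The 4 windows below run from 250 bases before to 50 bases after the RefSeq start and were chosen after the values were seen: Gm41263 starts at Novel00177 (chr15:7442051-7442350, + strand) and Gm20139 at Novel00020 (chr10:19141499-19141798, + strand), both among the 10 loci with the most reads. E130119H09Rik starts at Novel00149 (chr13:53915699-53915998, - strand), the locus with the highest FPKM, a value that scales reads by library size and transcript length. Gm20742 starts by Novel00241 (chr17:66192169-66192468, + strand), the locus with the highest ratio. Capitals mark matches, on either strand, to TATAAA (the TATA box) or CCAAT (the CCAAT box). They also mark matches to TGACTCA, an AP-1 site, and to TAATCC, the core bound by the photoreceptor factors CRX and OTX2.
Gm41263: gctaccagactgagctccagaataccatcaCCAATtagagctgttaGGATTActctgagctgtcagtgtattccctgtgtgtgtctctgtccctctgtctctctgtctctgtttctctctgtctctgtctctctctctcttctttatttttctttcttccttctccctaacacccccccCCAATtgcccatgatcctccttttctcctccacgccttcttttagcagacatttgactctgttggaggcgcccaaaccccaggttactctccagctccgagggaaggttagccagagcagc
Gm20139: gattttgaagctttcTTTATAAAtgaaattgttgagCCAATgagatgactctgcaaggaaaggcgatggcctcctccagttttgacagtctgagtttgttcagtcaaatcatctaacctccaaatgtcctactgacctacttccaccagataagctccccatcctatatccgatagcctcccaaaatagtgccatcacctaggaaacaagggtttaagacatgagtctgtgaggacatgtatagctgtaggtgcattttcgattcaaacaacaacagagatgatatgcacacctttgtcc
E130119H09Rik: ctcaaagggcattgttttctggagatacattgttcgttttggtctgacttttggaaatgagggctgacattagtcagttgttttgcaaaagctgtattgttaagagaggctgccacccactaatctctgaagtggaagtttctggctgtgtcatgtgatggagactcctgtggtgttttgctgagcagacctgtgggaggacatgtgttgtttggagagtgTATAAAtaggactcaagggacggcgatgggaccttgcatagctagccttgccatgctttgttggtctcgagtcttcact
Gm20742: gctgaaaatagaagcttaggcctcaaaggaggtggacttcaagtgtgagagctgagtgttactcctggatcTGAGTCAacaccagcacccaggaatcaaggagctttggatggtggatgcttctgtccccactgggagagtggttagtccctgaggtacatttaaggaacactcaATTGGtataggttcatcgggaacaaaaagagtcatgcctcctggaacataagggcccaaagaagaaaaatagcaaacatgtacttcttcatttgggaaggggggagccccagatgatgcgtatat

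Across the 109 RefSeq windows at these loci, TATAAA was found in 14 (12.8%), against 13.6% of all 32817 RefSeq windows of that length. CCAAT was found in 41.3% of the locus windows and 37.4% of all windows, and ACGTG, the core of the hypoxia response element, in 16.5% and 19.6%. TGACTCA was found in 3.67% and 5.20%. TAATCC was found in 17 locus windows (15.6%), against 7.06% of all windows. Both groups had a median GC content of 52.7%. The 5 motifs were chosen with the values known, both strands were searched, and a match is a run of letters, not a bound site. In the windows shown, the TAATCC match of Gm41263 and the CCAAT and AP-1 matches of Gm20742 lie on the strand opposite to the gene. The Gm20139 window holds 2 overlapping TATAAA matches, 1 on each strand.

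Some loci lie beside microRNA genes, whose primary transcripts can be long. No RefSeq hairpin lay inside a locus, but 9 lay within 5 kb of one. In the 5′ arm microRNAs and miR-184-3p below, chosen to show the 4 hairpin neighbourhoods that are described, capitals mark the seed, bases 2 to 8. The 2 let-7 microRNAs share the seed GAGGUAG, and each of the others has a seed of its own.
mmu-let-7c-5p: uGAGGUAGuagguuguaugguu
mmu-let-7b-5p: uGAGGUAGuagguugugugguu
mmu-miR-7b-5p: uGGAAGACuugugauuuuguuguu
mmu-miR-184-3p: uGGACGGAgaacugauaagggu
mmu-miR-384-5p: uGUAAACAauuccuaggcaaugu

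The let-7 microRNAs mark differentiated cells. Their hairpins let-7c-2 and let-7b lie 2.53 and 3.25 kb downstream of Novel00189, on its strand. This locus (chromosome 15, 85700424 to 85704069, + strand) had 54 OIR and 44 control reads, a ratio of read shares of 0.948 (95% interval 0.625 to 1.45). Novel00239 ends 182 bases before the hairpin of miR-7b, a microRNA of neural and endocrine tissue, on the same strand, and had 37 and 28 reads (ratio 1.02, 0.608 to 1.73). Neither locus differed between the libraries beyond counting error. Novel00536 lies 4 bases from the hairpin of miR-184, which is abundant in lens and corneal epithelium, on the opposite strand, and had 45 and 24 reads (1.45, 0.864 to 2.49). Novel00564 lies 614 bases from Mir384, also on the opposite strand, with 368 and 235 reads (1.21, 1.02 to 1.43). Of the loci beside hairpins, the one by Mir1905, Novel00372, was the only one at least 2-fold apart, with 90 OIR and 30 control reads (2.32, 1.52 to 3.63). Novel00092, by Mir1247 on the opposite strand, was lower in OIR, with 36 and 53 reads (0.525, 0.334 to 0.816). Of all features with at least 10 reads, 8.82% were at least 2-fold higher and 1.86% lower.

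The ratios above and below are the locus's share of all reads in the OIR library over its share in the control library. The OIR library held 20378793 reads in all rows and the control library 15741235. Each interval is an exact conditional 95% interval (Clopper-Pearson) and covers counting error only, because reads that carry no molecular identifier can be copies of one molecule. With 1 library per group no difference has a replicate check and none was tested, so "higher" and "lower" describe these 2 libraries. The groups are also whole eyeballs, in which fewer cells of a type and less RNA per cell cannot be told apart. Of the genes that define the labelled tissue, the lens crystallin gene Cryaa stood at 35594 FPKM (reads scaled by library size and transcript length) in OIR and 49529 in the control. Rpe65, the visual cycle isomerase gene of the retinal pigment epithelium, stood at 54.4 and 54.9 FPKM. Krt12, the keratin gene of corneal epithelium, stood at 148 and 59.9 FPKM.

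The loci together took a larger part of the OIR library. They held 82108 OIR reads, 0.403% of the library (95% interval 0.400 to 0.406), and 43865 control reads, 0.279% (0.276 to 0.281), a ratio of 1.45 (1.43 to 1.46). The 10 loci with the most reads held 37.6% of the OIR locus reads and 30.3% of the control ones. Their own ratio was 1.79 (1.76 to 1.83), and that of the other 565 loci was 1.29 (1.28 to 1.31). The lincRNA, antisense and TEC classes of annotated genes, by their GENCODE M21 type, lay between the loci and the coding genes. The ratio was 1.22 (1.21 to 1.23) for lincRNA (long intergenic noncoding RNA) genes, 1.21 (1.19 to 1.23) for antisense genes, 1.36 (1.34 to 1.39) for TEC genes, the class of transcribed regions awaiting experimental checks, and 0.994 (0.993 to 0.995) for protein-coding genes.

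Other parts of the libraries moved with this comparison. Ribosomal RNA genes took 0.153% of OIR and 0.00791% of control reads, a ratio of 19.4. The 30 lens genes took 18.5% and 24.4%. At least 2-fold higher in OIR were all 6 blood genes, 14 of 16 cornea and conjunctiva genes, 18 of 28 vessel, hypoxia and retinopathy genes and 6 of 16 muscle genes, against a background of 8.82% of all features with at least 10 reads. Summed shares in OIR and control were 0.0956% and 0.0344% for blood, 0.249% and 0.0778% for cornea and conjunctiva, 0.274% and 0.156% for the vessel list and 0.0299% and 0.0178% for muscle. The part of these differences in the locus ratios was not tested.

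Individually, the loci were weakly expressed. The median locus had 35 OIR and 21 control reads, and 0.854 and 0.679 FPKM. With FPKM compared over features with at least 10 reads, the loci (0.878 and 0.715) lay close to annotated lincRNA genes (0.969 and 0.822) and far under protein-coding genes (10.3 and 9.31). In at least 1 of the libraries, 282 loci reached 1 FPKM and 30 reached 5 FPKM. Transcript lengths ran from 254 to 32547 bases with a median of 2292, above the 969 of lincRNA genes. The loci comprised 407 with several blocks, as of spliced transcripts, and 168 with a single block.

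Of the 575 loci, 553 had at least 10 reads over both libraries and 318 had at least 50. The remaining 22 are described by their reads alone. At 0 in both libraries stood 7 loci, and 6 of these overlap another locus on the opposite strand. Such opposite overlaps involve 22 loci in all, 11 of them under 10 reads. Whether reads were counted by strand was not given in the sources used here, and the kit the labels name, NEBNext Ultra RNA, does not mark strand in its standard form. Reads of opposite overlapping loci therefore cannot be told apart. Without any locus that overlaps another locus or an annotated gene, 535 remained with at least 10 reads, and the counts given next became 107 higher and 36 lower.

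Among the 553 loci with at least 10 reads, 110 (19.9%) were at least 2-fold higher in OIR, against a background of 8.82% over all 19080 features with that many reads. At least 2-fold lower were 36 loci (6.51%), against 1.86%. The median locus had a log2 ratio of 0.35, a ratio of 1.28, against 0.15 over all features. Above a ratio of 1 lay 379 loci (68.5%), close to the background of 65.4%. Asking also that the counting interval exclude 1 left 83 higher and 25 lower, against backgrounds of 6.13% and 1.03%. At the minimum of 10 reads, annotated noncoding genes spread in a like way. TEC genes had 24.8% higher and 2.80% lower with a median of 0.44, antisense genes 18.1% and 4.11% with 0.31, and lincRNA genes 14.5% and 7.57% with 0.26. Protein-coding genes had 6.44% and 1.17%, and a median of 0.13. With at least 50 reads, 14.5% of loci were higher, against 12.3% of TEC, 7.94% of antisense and 7.49% of lincRNA genes. Lower were 2.83% of loci, against 0.559%, 1.19% and 4.87% of these classes.

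**Figure D1:**
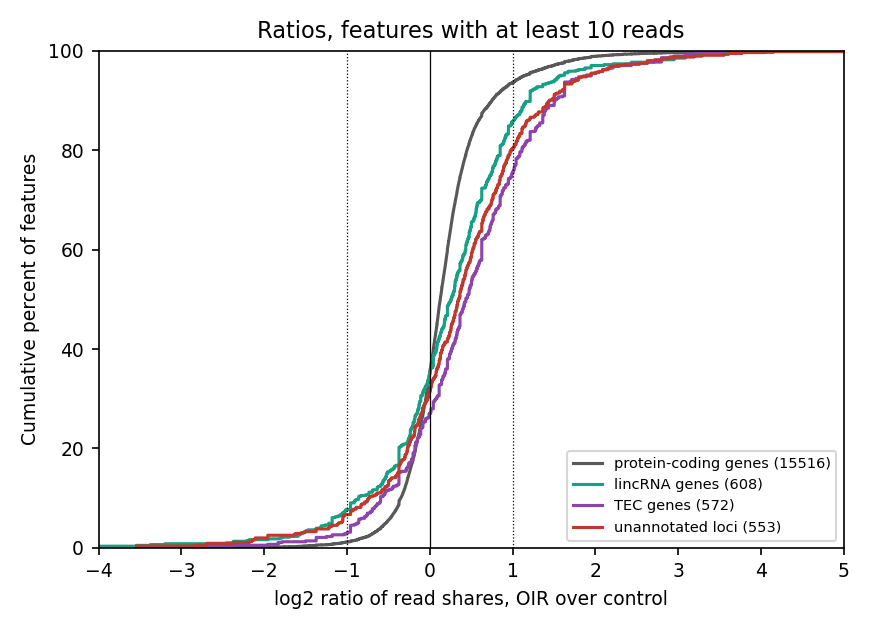
Cumulative percent of features (vertical axis) by log2 ratio of read shares, OIR over control (horizontal axis), for features with at least 10 reads; the dotted lines stand at 2-fold. The curve of the 553 unannotated loci runs between those of lincRNA and TEC genes over most of its upper part, and the protein-coding curve is the steepest.

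The share of features past 2-fold was larger where reads were few. From 10 to under 30 reads, 29.7% of loci and 26.7% of annotated features were at least 2-fold higher. From 30 to under 100 reads the shares were 17.8% and 17.0%. In these 2 classes loci and annotated features thus had nearly equal shares of higher members. From 100 to under 300 reads they stood apart, at 18.5% (22 of 119 loci) and 7.99%. From 300 to under 1000 reads they were 9.52% (6 of 63 loci) and 3.80%, and at 1000 or more reads 2 of 21 loci and 1.69% of annotated features. Lower members were more frequent among loci than among annotated features in the lowest class, 16.2% against 7.66%. With at least 50 reads, 46 of 318 loci (14.5%) were higher, against a background of 4.7%, and 9 (2.83%) were lower, against 0.572%. Among the 21 loci with 1000 or more reads, 20 had a ratio above 1 (95.2%), against 66.4% of annotated features with that many reads.

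**Figure D2:**
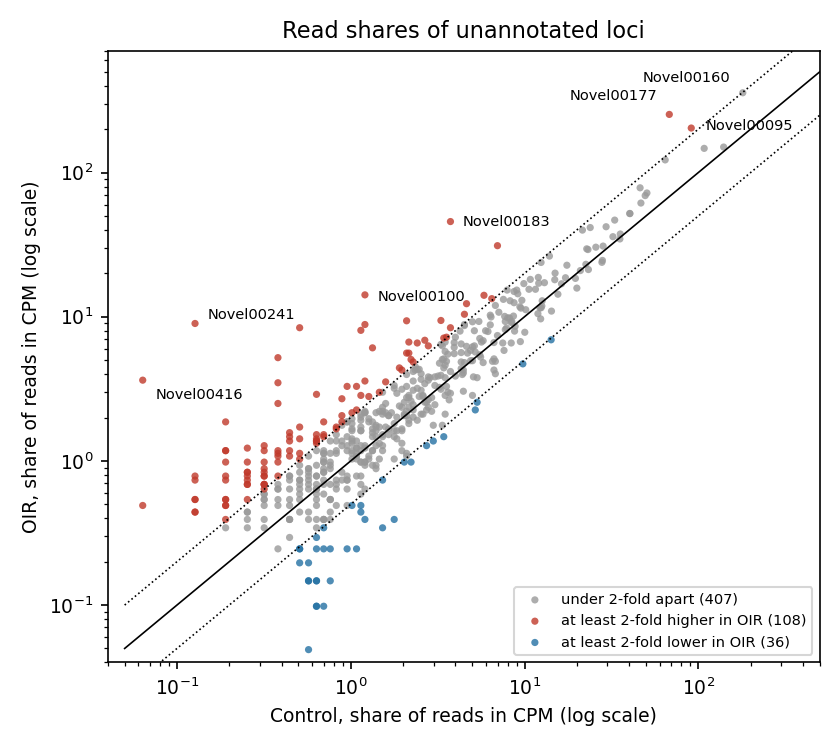
Read share of each locus (CPM) in the control (horizontal) and OIR (vertical) libraries on log axes, for the 551 loci with at least 10 reads and none at 0 in either library. The solid line marks equal shares and the dotted lines 2-fold; 108 loci lie on or above the upper dotted line and 36 on or below the lower one.

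The locus with the most reads was Novel00160 (chromosome 14, 33471529 to 33581238, + strand), with 7292 OIR and 2839 control reads and a ratio of 1.98 (1.90 to 2.07). It shares exons on its strand with GENCODE M21's Frmpd2, a FERM and PDZ domain scaffold gene that is not among the table's annotated rows. The table's nearest gene is Ptpn20, a protein tyrosine phosphatase gene 8.03 kb downstream, with 26 and 8 reads (2.51, 1.10 to 6.42). The next, Novel00177 (chromosome 15, 7442229 to 7466080, + strand), had 5160 and 1072 reads and a ratio of 3.72 (3.48 to 3.97), with 27.0 and 7.28 FPKM. RefSeq starts Gm41263 72 bases inside its 5′ end. Novel00095 (chromosome 12, 3142090 to 3161791, - strand), a single block with no GENCODE M21 exon, had 4151 and 1434 reads (2.24, 2.11 to 2.38). Both Novel00177 and Novel00095 were over 2-fold higher in OIR, and Novel00160 lay just under that mark.

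The other 7 most-read loci were less than 2-fold apart. Novel00132 (chromosome 13), which overlaps the lincRNA A930014D07Rik, had 2495 and 1015 reads (1.90, 1.76 to 2.04). Novel00020 (Gm20139) had 1598 and 728 reads (1.70, 1.55 to 1.85). It lies 126 kb from Tnfaip3, whose product A20 restrains NF-kB signalling and whose own ratio was 0.944 (0.891 to 1.00). Novel00044, Novel00299, Novel00208 and Novel00144 had ratios of 1.43, 1.40, 1.36 and 1.32. Novel00298 (chromosome 19, 8132471 to 8149286, + strand) had 3064 and 2203 reads and a ratio of 1.07 (1.02 to 1.14). It begins 489 bases from Slc22a28, an organic anion transporter family gene that had only 7 and 4 reads. All 10 most-read loci had ratios above 1 with intervals above 1, but Novel00298 moved to a log2 ratio of -0.04 under the authors' scaling factors.

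By FPKM, Novel00149 came first in both libraries. This locus (E130119H09Rik; chromosome 13, 53905383 to 53915771, - strand), a transcript of 1513 bases, had 33.2 FPKM in OIR and 29.9 in the control, from 732 and 508 reads (1.11, 0.993 to 1.25). Its nearest annotated row is the dopamine receptor gene Drd1, 135 kb away. By OIR FPKM, Novel00160 followed with 29.4 and 14.8 FPKM. By control FPKM, Novel00531 followed with 24.2 in OIR and 25.7 in the control (0.940, 0.806 to 1.10). The length implied by the OIR FPKM lay within 1 base of the listed length for 348 of 567 loci. Novel00149 was not among these, so the order by FPKM can differ from that by reads per listed base.

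The 8 highest ratios among loci with at least 50 reads were all at least 7.32-fold. Novel00241 (chromosome 17, 66192693 to 66200077, + strand) had 183 OIR and 2 control reads, a ratio of 70.7 with a wide interval of 19.3 to 588. It overlaps a GENCODE M21 lincRNA and lies 274 bases from the RefSeq start of Gm20742. Its nearest annotated row, the DNA helicase gene Ddx11 at 40.5 kb, had a ratio of 1.19 (0.886 to 1.62). Novel00416 (chromosome 5, 114842325 to 114843757, - strand) had 74 and 1 reads (57.2, 9.95 to 2288). It lies 250 bases upstream of Gm13821, a TEC gene on the same strand that had 301 and 7 reads (33.2, 15.9 to 83.3). Both rows had few control reads, 1 and 7.

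Novel00169 (chromosome 14, 105589498 to 105594797, + strand; 9330188P03Rik) had 171 and 8 reads (16.5, 8.19 to 38.9). Novel00089 (chromosome 12), with no GENCODE M21 exon and a nearest annotated row at 0 reads, had 106 and 6 reads (13.6, 6.07 to 38.0). Novel00183 (chromosome 15, 73957154 to 73994048, + strand) had the most reads of the 8, 932 and 59, and a ratio of 12.2 (9.37 to 16.2). Its interval is the narrowest of the 8. Novel00100 (chromosome 12, 35545896 to 35557853, - strand) had 289 and 19 reads (11.7, 7.39 to 19.8). It lies 10.9 kb upstream of Ahr, the aryl hydrocarbon receptor, a ligand-activated transcription factor whose gene had 1924 and 557 reads (2.67, 2.43 to 2.94).

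Novel00024 (chromosome 10) had 71 and 6 reads (9.14, 3.998 to 25.7) and lies tail to tail with Hey2, a repressor that acts in Notch signalling, at 3.97 kb. Hey2 had 236 and 109 reads (1.67, 1.33 to 2.12). Novel00008 (chromosome 1), in which the RefSeq start of 2900024J01Rik lies, had 180 and 19 reads (7.32, 4.55 to 12.4). Of the 8 neighbours, the ratio of Gm13821 alone lies inside the interval of its locus. The loci were picked for high ratios and the neighbours were not, which itself favours such gaps. Mir6390, nearest to Novel00169 at 28.8 kb, had 0 OIR and 5 control reads, and the rows nearest to Novel00089 and Novel00183 had 0 and 1 reads in all.

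The 8 lowest ratios were smaller differences, from 0.429 to 0.483. Novel00527 (chromosome 9) had 30 OIR and 54 control reads (0.429, 0.265 to 0.683). It begins 449 bases from Tbcel, a tubulin-folding cofactor-like gene, whose ratio was 1.03 (0.942 to 1.12). Novel00046 (chromosome 10), inside the lincRNA Gm4065, had 46 and 82 reads (0.433, 0.295 to 0.629). Novel00176 (chromosome 14, 105875371 to 105885131, - strand) had the most reads of the 8, 96 and 154 (0.482, 0.369 to 0.625). It lies 6.82 kb downstream of Spry2, an inhibitor of receptor tyrosine kinase signalling with a ratio of 1.17 (1.08 to 1.26). Novel00487 begins 188 bases from Brsk2, a kinase of neuronal polarity, and had 26 and 43 reads (0.467, 0.276 to 0.778), while Brsk2 had a ratio of 1.13 (1.07 to 1.21). The others were Novel00273 (0.441), Novel00082 (0.460), Novel00507 (0.478) and Novel00075 (0.483). All 8 intervals lie under 1, but each rests on at most 154 reads in 1 library.

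**Figure D3:**
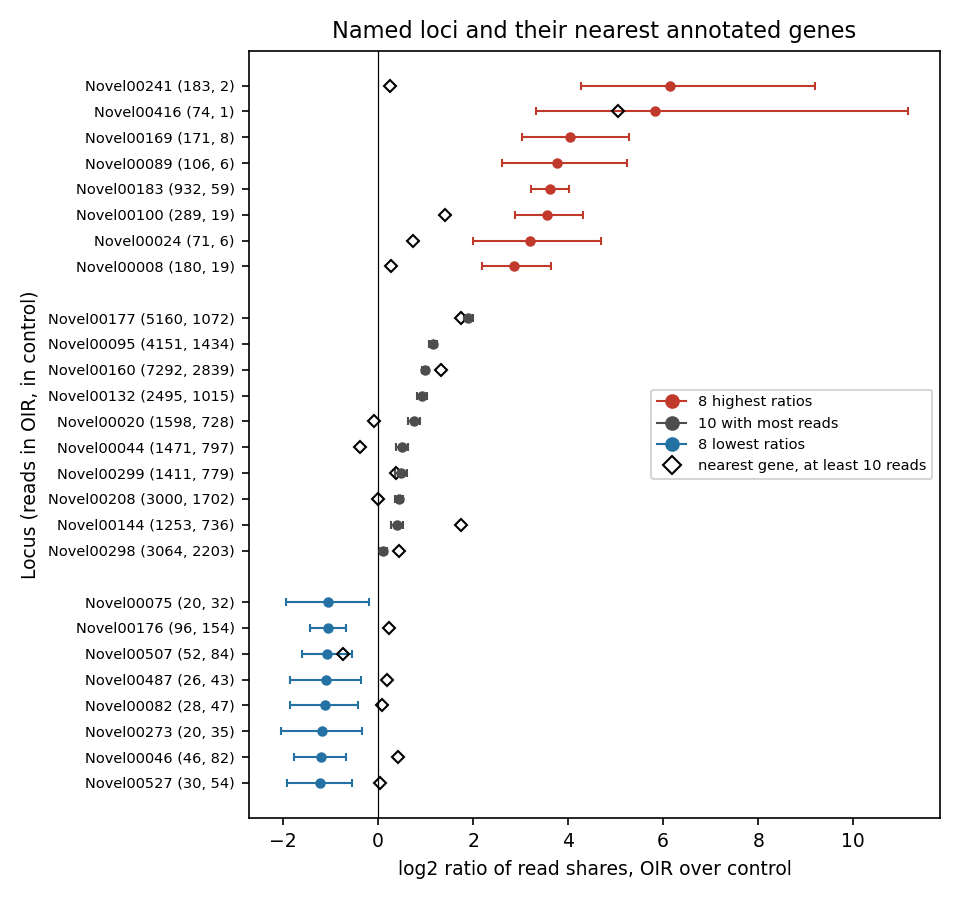
Log2 ratio of read shares (horizontal axis) of the 8 loci with the highest ratios (red), the 10 with the most reads (grey) and the 8 with the lowest ratios (blue), each with its 95% counting interval and its OIR and control reads. Open diamonds give the nearest annotated gene where it had at least 10 reads. For Novel00144 the neighbour had 0 control reads, and its diamond was drawn with 3 reads in place of 0. Among the 8 highest and the 8 lowest ratios, every diamond shown lies nearer 0 than its locus. These loci were picked for extreme ratios and their neighbours were not, so the choice itself favours this pattern.

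The longest loci were Novel00020, Novel00208, Novel00481, Novel00141 and Novel00177, with transcript lengths of 19970 to 32547 bases. Novel00481 (chromosome 7) had 537 and 219 reads (1.89, 1.62 to 2.23), and Novel00141 (chromosome 13) 486 and 439 (0.855, 0.750 to 0.975). Of the 5 loci farthest from any annotated row, 1 was at least 2-fold apart. Novel00081 and Novel00082, on chromosome 12 at 286 and 246 kb from the phosphatidate phosphatase gene Lpin1, both overlap the lincRNA Gm48606. They had 119 and 120 reads (0.766, 0.589 to 0.995) and 28 and 47 reads (0.460, 0.277 to 0.750), both lower in OIR. Novel00157, Novel00191 and Novel00548 had ratios of 0.793, 0.827 and 0.879 with intervals that include 1. These 5 loci had ratios under 1. Of the 73 loci with at least 10 reads that lie over 50 kb from a gene, however, 11 were at least 2-fold higher (15.1%) and 5 lower (6.85%). Their median log2 ratio was 0.11. Of all features with at least 10 reads, 8.82% were higher and 1.86% lower, with a median of 0.15.

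Most loci lie close to an annotated gene. Overlap with an annotated row was found for 4 loci, 158 lie within 1 kb of one, 129 at 1 to 5 kb, 203 at 5 to 50 kb and 79 farther away. The remaining 2 lie on sequences with no annotated row. The median distance of loci that overlap no annotated row was 4923 bases. For 388 loci the nearest row is a protein-coding gene. By orientation, 176 loci lie head to head with the nearest gene, 130 tail to tail, 126 upstream on its strand and 137 downstream on its strand. Within 1 kb the head-to-head arrangement was the most frequent, with 82 loci against 41, 23 and 12. Of those 82, 48 have several blocks and 34 a single block. The strand is the table's, and its origin for single-block loci was not given in the sources used here.

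**Figure D4:**
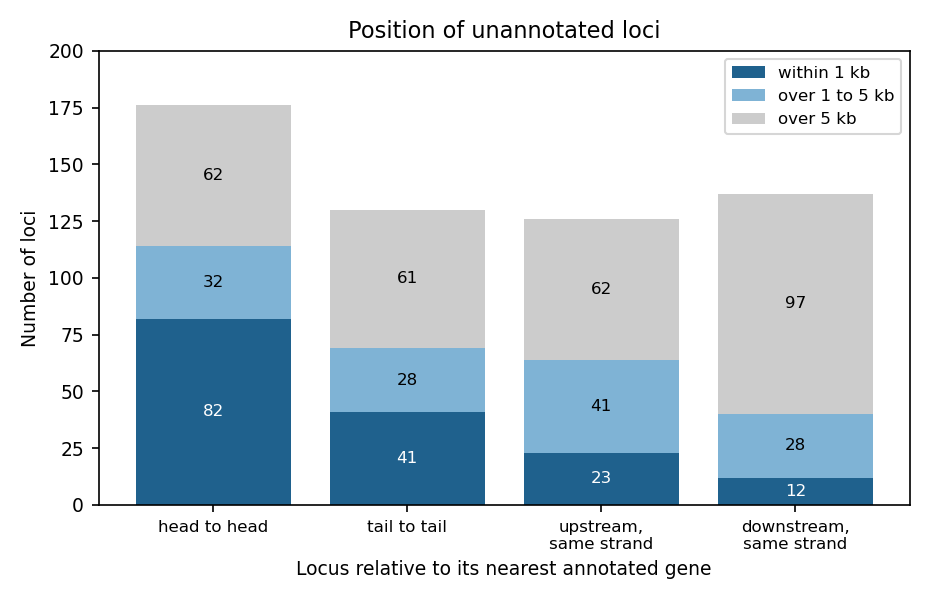
Number of loci by orientation to the nearest annotated gene, stacked by distance; loci that overlap a gene or lack one on their sequence are not shown. Within 1 kb, 82 loci lie head to head, 41 tail to tail, 23 upstream and 12 downstream on the same strand.

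Chromosome 7 carried the most loci, 50, and chromosome 13 followed with 44. Per 1000 annotated rows, chromosome 18 had 36.1 and chromosome 13 29.0 loci, against 4.08 on chromosome 1. Against the backgrounds of 8.82% higher and 1.86% lower, position split the calls as follows. Of loci within 5 kb of a gene, 50 of 284 with at least 10 reads were at least 2-fold higher (17.6%) and 14 lower, with a median log2 ratio of 0.34. Beyond 5 kb the counts were 59 and 22 of 267, with a median of 0.36. Head-to-head loci within 1 kb had 5 higher (6.25%, under the background) and 4 lower of 80, and loci within 5 kb upstream on the gene's strand 17 and 6 of 63.

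For 428 loci both the locus and its nearest gene had at least 10 reads. In 261 of these pairs (61.0%) the ratios lay on the same side of 1, with a Spearman correlation of 0.25 across pairs, which share both libraries. Within 5 kb, 162 of 250 pairs (64.8%) lay on the same side with a correlation of 0.31. From 5 to 50 kb it was 80 of 130, and over 50 kb 19 of 48 (39.6%) with a correlation of -0.03. In 223 of the 261 both ratios lay above 1, where most features lie. Of all features with at least 10 reads, 65.4% had a ratio above 1.

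In 28 pairs the neighbour was at least 2-fold higher in OIR, and in 10 of these the locus was too. Over all 428 pairs the locus was at least 2-fold higher in 79 (18.5%), against 8.82% of all features. Besides the pairs with Gm13821 and Ahr, they include Junb, an AP-1 subunit gene of the early response, with 1032 and 216 reads (3.69, 3.18 to 4.29). Novel00515, 2.37 kb upstream of Junb on its strand (chromosome 8, 84981116 to 84986228), had 128 and 44 reads (2.25, 1.58 to 3.24). Chrnb4, a nicotinic acetylcholine receptor subunit gene, had 253 and 92 reads (2.12, 1.67 to 2.73). Novel00551, 16.4 kb upstream of it and overlapping the lincRNA Gm47887, had 164 and 18 (7.04, 4.32 to 12.2). Stc2, which encodes the secreted glycoprotein stanniocalcin 2, had 364 and 70 reads (4.02, 3.10 to 5.26), and Novel00062, 500 bases upstream, had 11 and 2 (4.25, 0.927 to 39.4). Not every neighbour went along. Arl6, a small GTPase gene of the Bardet-Biedl syndrome proteins, had 2861 and 1016 reads (2.18, 2.02 to 2.34), and Novel00215, head to head at 2.42 kb, had 87 and 70 (0.960, 0.693 to 1.33). These pairs were chosen after their values were seen.

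**Figure D5:**
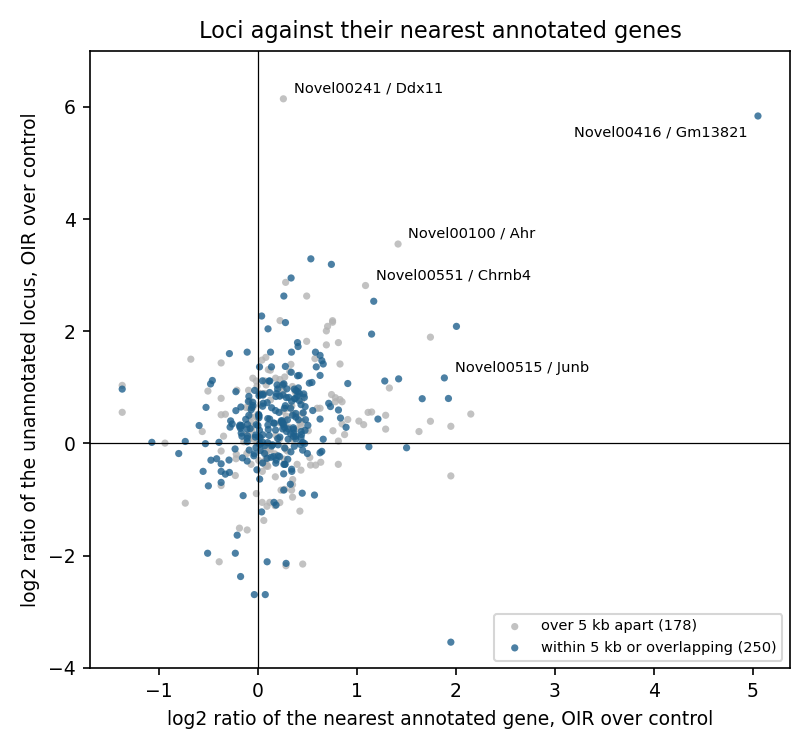
Log2 ratio of each locus (vertical) against that of its nearest annotated gene (horizontal), OIR over control, for the 428 pairs with at least 10 reads in each member; dark points lie within 5 kb. Novel00416 and Gm13821 stand far up on both axes, while Novel00241 stands high with its neighbour Ddx11 near 0.

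Of 179 genes in 9 lists of eye cell types and of vessel and hypoxia genes, 8 had a locus within 5 kb. These involve 11 loci, 8 of them with at least 10 reads. Novel00519, 3.39 kb upstream of the lens regulator gene Maf, had 62 and 70 reads (0.684, 0.478 to 0.977), and Maf itself 3225 and 3131 (0.796, 0.757 to 0.836). It was the only one with at least 50 reads. By the lens crystallin genes Crybb2 and Crybb3, with ratios of 0.703 and 0.726, the 2 loci with at least 10 reads went in opposite directions. Novel00406 had 5 and 15 reads (0.257, 0.0732 to 0.745), and Novel00407 31 and 11 (2.18, 1.06 to 4.80). By Pou4f1, a transcription factor gene of retinal ganglion cells (0.975, 0.857 to 1.11), Novel00175 had 2 and 10 reads (0.154, 0.0165 to 0.725). By Scgn, the calcium-binding secretagogin of bipolar cells (0.574, 0.513 to 0.641), Novel00119 had 24 and 21 reads (0.883, 0.471 to 1.67).

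GENCODE M21, which need not be the release the authors used, gives names to part of the loci. On the same strand, 143 loci overlap an exon of a gene that is not among the table's rows, most often a lincRNA (80), a protein-coding gene (15) or a processed pseudogene (14). A longer model of a gene already in the table covers 28, exons on the other strand alone 33, and no exon 369. With at least 10 reads, 25 of 138 (18.1%), 6 of 28 (21.4%), 6 of 31 (19.4%) and 72 of 354 (20.3%) in these classes were at least 2-fold higher. At least 2-fold lower were 9, 1, 3 and 23 (6.52%, 3.57%, 9.68% and 6.50%). Over all features with that many reads the shares were 8.82% and 1.86%. The classes of 28 and 31 loci are small. Among the coding genes, Novel00316 matches Brd3os and had 292 and 245 reads (0.921, 0.774 to 1.10). Novel00261 (chromosome 17, 56551298 to 56560658, - strand) overlaps a coding gene model of M21 and the RefSeq start of Tincr, a gene of differentiating epidermis. It had 813 and 339 reads (1.85, 1.63 to 2.11), while Safb2, which ends 307 bases away on its strand and encodes a nuclear scaffold protein, had 2574 and 1487 (1.34, 1.25 to 1.43).

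The table also attaches Gene Ontology terms to 251 of the loci, and terms of several kinds were more frequent than among annotated rows. Ion channel activity was given to 20 of 199 loci with a molecular function term (10.1%), against 1.84% of annotated rows. The term virion was given to 27 of 164 loci with a cellular component term (16.5%), against 19 of 20944 annotated rows (0.0907%). Any of 5 terms of this type was given to 32 of 251 loci (12.7%), against 35 of 21829 annotated rows (0.160%). Chosen after the terms were seen, the 5 were virion, viral capsid, DNA integration, RNA-DNA hybrid ribonuclease and RNA-directed DNA polymerase. The last of these was given to none of the loci. Endogenous retroviruses encode capsid proteins and an aspartic protease. Aspartic-type endopeptidase activity, a term outside the 5, was given to 13 of 199 loci (6.53%), against 0.131% of annotated rows. The 32 loci had 9235 OIR and 5703 control reads, a ratio of 1.25 (1.21 to 1.29). Of the 28 with at least 10 reads, 4 (14.3%) were at least 2-fold higher, against 8.82% of all features. None was lower, against 1.86%. Their median log2 ratio was 0.32, near the 0.35 of all loci. Of 31 annotated rows with such a term and at least 10 reads, 0 were higher and 0 lower, with a median of 0.09. Novel00298 and Novel00299, among the most-read loci, belong to the 32 loci.

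Loci also lie near each other. There are 45 pairs of loci within 10 kb, 13 of them overlapping. Of 29 pairs that lie apart and have at least 10 reads in both, 22 have ratios on the same side of 1, 16 of 21 on the same strand and 6 of 8 on opposite strands. In 17 of these 29 pairs a member was at least 2-fold higher, and in 5 both were. Of all loci with at least 10 reads, 19.9% were at least 2-fold higher and 68.5% had a ratio above 1. Over all features the shares were 8.82% and 65.4%. Whether neighbouring loci change together was not tested. Novel00498 and Novel00499 lie 3.45 kb apart on one strand of chromosome 8 (57658981 to 57670270 in all), the first 5.95 kb head to head with Galnt7, which encodes a GalNAc transferase of mucin-type O-glycosylation. They had 59 and 10 reads (4.56, 2.31 to 9.99) and 191 and 33 reads (4.47, 3.08 to 6.68), while Galnt7 had a ratio of 1.69 (1.56 to 1.83). Novel00423 and Novel00424 on chromosome 6 had 134 and 38 (2.72, 1.89 to 4.02) and 51 and 6 reads (6.57, 2.82 to 18.7). The table does not show whether adjacent loci are parts of 1 transcript. These pairs were chosen after their values were seen.

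In the authors' deposited table, 4 of 562 loci with a p-value were called up in OIR and none down, against backgrounds of 0.426% and 0.0314% of the 22321 rows with a p-value. In the authors' deposited table Novel00177 had a log2 fold change of 1.75 and an adjusted p of 9.73e-24, and Novel00183 3.47 and 3.12e-08. The authors' deposited table gives Novel00095 1.02 and 6.83e-09, and Novel00504 2.01 and 0.00458. Novel00504 (chromosome 8, 119640603 to 119648986, + strand) had 634 OIR and 110 control reads (4.45, 3.63 to 5.50) and lies head to head with Kcng4, a modifying subunit gene of potassium channels, at 4.92 kb. Since each group is 1 library, these p-values hold no measure of the variation among mice. The calls do not follow the adjusted p-value alone. Novel00160 and Novel00132, with deposited log2 fold changes of 0.849 and 0.785, had smaller adjusted p-values than Novel00504 and were not called. Of the 8 loci with the highest ratios, Novel00183 alone is among the 4.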

How the data were processed

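RNA of 1 control and 1 OIR eyeball sample was measured by RNA sequencing. The submitters' processing notes name build mm10, the aligners TopHat2 2.0.12 and Bowtie2 2.2.3, and the counter HTSeq 0.6.1, with settings not given in the sources used here. Per the file headers, the authors' table holds read counts and FPKM values per row and library. It also holds the authors' scaled counts, a deposited signal used here for the scaling factors alone (21.4 for OIR, 15.0 for control). The deposited table further gives the authors' log2 fold change and p-values. After 5 lines of broken annotation text were dropped, 47644 rows were used, of which 46574 matched GENCODE M21 by identifier.

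Read shares, ratios and exact intervals were computed with Python 3.11.15 and SciPy 1.17.1, from counts as deposited. A count of 0 against a higher count was set to a floor of 3 reads. No count model was fitted, since each group is 1 library. Ratios were described over features with at least 10 reads, and at least 2-fold was the call. Distance was taken to the nearest annotated row of the table, by span. Loci were named by rule: the 10 with the most reads and, with at least 50 reads, the 8 highest and 8 lowest ratios, the 5 farthest and 5 longest, and those within 5 kb of a listed gene. Others were chosen after their values were seen. The members, lists and rules were chosen with earlier results of these data known. The procedure was tested on simulated counts with counting error alone. Changes of 4-fold were planted, and only features with at least 100 reads were scored. The simulation held no variation among mice and no duplicate reads, and it does not cover calls at fewer reads. The alternatives tried were other minimum counts, folds, library totals, FPKM with pseudocounts of 1 and 0.1, and distance limits. The loci beside 1 listed gene are not reported here.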

Additional observations from a re-analysis of the deposited data

How the results depend on the processing

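No paired analysis was possible because each group is 1 library. The median log2 ratio of the loci (0.35) stayed above 0 under every alternative run. It was 0.24 with the library total taken without unannotated, lens and mitochondrial reads, 0.21 with the authors' scaling factors (which shift every log2 ratio by -0.14), 0.21 when centred on the median of all features and 0.19 as a difference of log2(FPKM + 1). With these 3 scalings 85 to 87 loci were higher and 44 lower, in place of 110 and 36. The counts of higher and lower loci moved by over 1.5 times under other limits: 46 and 9 with at least 50 reads, 14 and 1 by log2(FPKM + 1), 37 and 13 by log2(FPKM + 0.1), 207 and 61 at 1.5-fold, 26 and 10 at 4-fold, and 59 and 22 for loci over 5 kb from a gene, an alternative chosen after seeing the data. The FPKM settings test 282 loci, and a pseudocount of 1 pulls low values together. Over all features with at least 50 reads, 4.7% were at least 2-fold higher and 0.572% lower. For the scalings, the FPKM settings and the other folds no share over all features was computed. Whether those counts exceed the background is therefore not known. The ratio of summed shares (1.45) was 1.41 without the locus with the most reads, 1.29 without the 10 with the most reads and 1.33 against a library total without lens and mitochondrial reads. With 1 kb in place of 5 kb, 162 loci lie near a gene in place of 291. Pairs of locus and gene on the same side of 1 made up 55.6% beyond 5 kb and 39.6% beyond 50 kb, in place of 61.0%. Of the 33 loci named by rule, none at least 2-fold apart changed direction, but the alternatives run on them could not have changed it. The 3 scalings shift every log2 ratio by -0.12 to -0.15, and a pseudocount leaves the direction as it is. Depth limits the 235 loci with 10 to 49 reads, of which 202 have a counting interval that spans at least 4-fold, against 7 of the 318 loci with more.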
